A study of Mus musculus with 12 samples.

Results

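The genes described here encode the proteins of the cytosolic ribosome in NIH-3T3 cells, an immortalised mouse embryonic fibroblast line. They were chosen by name alone: a gene was a member if its mouse symbol was Rpsa or followed the Rpl, Rps or Rplp numbering, allowing the endings a, x, l and l1, and if its mean was at least 50 expected counts over the 12 libraries. Of 16300 genes in the deposited table, 83 symbols matched and 81 passed that minimum, 50 of the large subunit and 31 of the small subunit. The paralogs Rpl6l and Rpl3l matched but averaged 2.29 and 0.583 expected counts and were left out, and the lowest members were Rpl32l at 206 and Rpl34 at 871. Genes whose symbols follow another pattern, such as Fau and Rack1, are given separately. All 81 members were among the 11763 genes that passed the low count filter.

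RNA sequencing of poly-A RNA compared 4 groups of 3 libraries. Exposure lasted 24 h in each. The Con group was given PBS only. The STC1 group was given 100 ng/mL of the recombinant glycoprotein stanniocalcin-1, the TGFb1 group 10 ng/mL of the growth factor TGF-β1, and the TS group the 2 proteins combined. All groups were the same cell line with no genetic change, and the proteins were added to the medium, so the transcript of neither ligand checks the labels. The libraries held between 16867563 and 18521810 expected counts. Levels are given in CPM, counts relative to the library size after TMM scaling, or where named in plain CPM, without TMM. Fibroblast markers summed to between 15987 and 18388 plain CPM, macrophage markers to at most 10.3, epithelial markers to at most 0.900 and endothelial markers to at most 0.453.

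A cytosolic ribosome consists of a large and a small subunit, each a core of ribosomal RNA clothed with proteins that are needed in matched amounts. In mammals the mRNAs of nearly all these proteins begin with a short stretch of pyrimidines, the terminal oligopyrimidine or TOP tract, which places their translation under the control of mTOR and the RNA-binding protein Larp1. Growth signals that act through PI3K, AKT and mTOR raise ribosome production mainly by translation of these mRNAs and by transcription of ribosomal RNA. RNA sequencing reports the abundance of the mRNAs and not their translation.

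The start of the genes was examined first, because the tract belongs to the mRNA's first bases. RefSeq start-site windows (GRCm38.p6, from 250 bases before to 50 bases after the start) were given for 61 of the 81 members, 72 windows in all. A run of at least 8 pyrimidines that reached to within 20 bases of the annotated start, on either side, was found in 36 of the 72 (50%). Such runs were in 21% of all 32851 windows and 20.2% of those of tested genes. A run could lie wholly before the annotated start, as in Rps25 and Rps27l, or begin after it, as in Rps12. The count is therefore not one of TOP tracts. The letters CTTTC on the sense strand, wholly within 20 bases of the start, were in 19 windows (26.4%). They were in 5.49% of all windows and 4.73% of those of tested genes. All these letters are pyrimidines, so each match lies inside a pyrimidine run, which can be shorter than 8, and the 2 counts are not separate. CCGGAAG on either strand, the core of the Ets family motif, was in 26 windows (36.1%), against 8.86% of all windows and 17.9% of those of tested genes. GGGCGG on either strand, the GC box, was in 43 (59.7%), against 35.7% of all windows and 62.9% of those of tested genes. TATAAA on the sense strand at 20 to 40 bases before the start, the TATA box, was in 1 window (1.39%). It was in 1.87% of all windows and 0.848% of those of tested genes. These matches are descriptions of letters in a window and not measured binding sites.

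The windows below show that arrangement for 6 members with a pyrimidine run across the start, and for Rps7 and Rpl27, which have short runs there and are among the members described next. Each gives 40 bases before and 20 bases from the annotated start, 5′ to 3′ on the gene's own strand, with the longest pyrimidine run near the start in capitals.
Rpl15 (chr14:18270967-18271026, minus strand): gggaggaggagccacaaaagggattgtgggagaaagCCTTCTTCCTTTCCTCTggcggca
Rpl28 (chr7:4792925-4792984, plus strand): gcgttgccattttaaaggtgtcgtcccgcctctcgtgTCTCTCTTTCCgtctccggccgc
Rplp2 (chr7:141447611-141447670, plus strand): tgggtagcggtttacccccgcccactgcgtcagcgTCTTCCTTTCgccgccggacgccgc
Rps10 (chr17:27635225-27635284, minus strand): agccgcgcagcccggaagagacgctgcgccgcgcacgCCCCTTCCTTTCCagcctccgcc
Rps18 (chr17:33955646-33955705, minus strand): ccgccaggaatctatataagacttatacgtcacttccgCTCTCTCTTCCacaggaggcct
Rps27 (chr3:90213629-90213688, minus strand): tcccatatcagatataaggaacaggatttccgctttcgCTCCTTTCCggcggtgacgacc
Rps7 (chr12:28635934-28635993, minus strand): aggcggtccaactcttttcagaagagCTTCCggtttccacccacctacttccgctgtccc
Rpl27 (chr11:101442205-101442264, plus strand): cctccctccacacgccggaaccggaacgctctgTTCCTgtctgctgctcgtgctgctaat

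Members with a long and with a short run had like fold changes between TS and Con. Long runs were counted wherever they lay near the start, also wholly before it. The 34 members with a run of at least 8, such as Rpl15 and Rps18, and the 27 with a shorter run, such as Rps7 and Rpl27, each had a median log2 fold change of 0.10 between TS and Con, and 19 and 13 of them rose by the test described below. The medians in the same order were 0.050 and 0.065 in TGFb1 against Con. They were 0.054 and 0.054 in STC1 against Con, and 0.058 and 0.037 in TS against TGFb1. The difference between the classes was not tested.

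RP mRNAs were among the most abundant in these cells. Together they held between 7.82% and 8.51% of a library's counts, and 72 of the 81 lay in the top 5% of tested genes by CPM. Per kilobase of transcript the median member stood at 1203 CPM, against 12.2 for the median tested gene, with 1168 for the large and 1327 for the small subunit genes. The highest were Rps2 (3867 CPM per kilobase), which lies at the mRNA entry of the small subunit, Rps6 (3114), the small subunit protein phosphorylated downstream of mTOR, Rplp0 (2710.4), the base of the stalk that recruits elongation factors, Rps18 (2616) and Rpl23a (2513). The lowest were Rpl34 (104), the paralogs Rpl7l1 (154), Rps27l (193) and Rpl39l (197), and Rps20 (215), whose annotated transcript of 3706 bases lowers its value per length.

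Several members share sequence with near-identical copies, and their levels are uncertain where counting could split the reads. Rpl34 stood at 47.8 ± 3.66 CPM (SD, n = 3) in Con, while the row named Rpl34-ps1 held 389 plain CPM on average over the 12 libraries. The row Rps15a-ps5 held 69.7 plain CPM. In 31 of the 81 members at least 1 library had a fractional count, and the 50 members with whole counts throughout included 31 of the members that rose in TS.

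The level of the RP genes as a whole differed by group. The summed level in CPM was 77921, 77738 and 80341 in the Con libraries, 81443, 82221 and 81099 in STC1, 82749, 81193 and 81875 in TGFb1, and 85420, 84600.5 and 82783 in TS. Every Con library lay below every library of the other groups, and STC1 and TGFb1 overlapped. The TS libraries lay above all the others, TS replicate 3 only just, and without TMM it lay below TGFb1 replicate 1 (82612 against 82734), so that those groups overlapped. The means were 78667 ± 1453 in Con, 81587 ± 575 in STC1, 81939 ± 780 in TGFb1 and 84268 ± 1349 in TS (SD, n = 3), so that the TS sum was 7.12% above that of Con. By gene, the Con mean was the lowest of the 4 group means for 72 of the 81 members (30.3% of all tested genes) and the TS mean the highest for 73 (26.1%). Both held for 65 members (12.2%). These shares describe the members, and no test was made over the list. In RNA from whole cultures a higher level in each cell and a larger share of cells with a high level cannot be told apart.

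**Figure D1:**
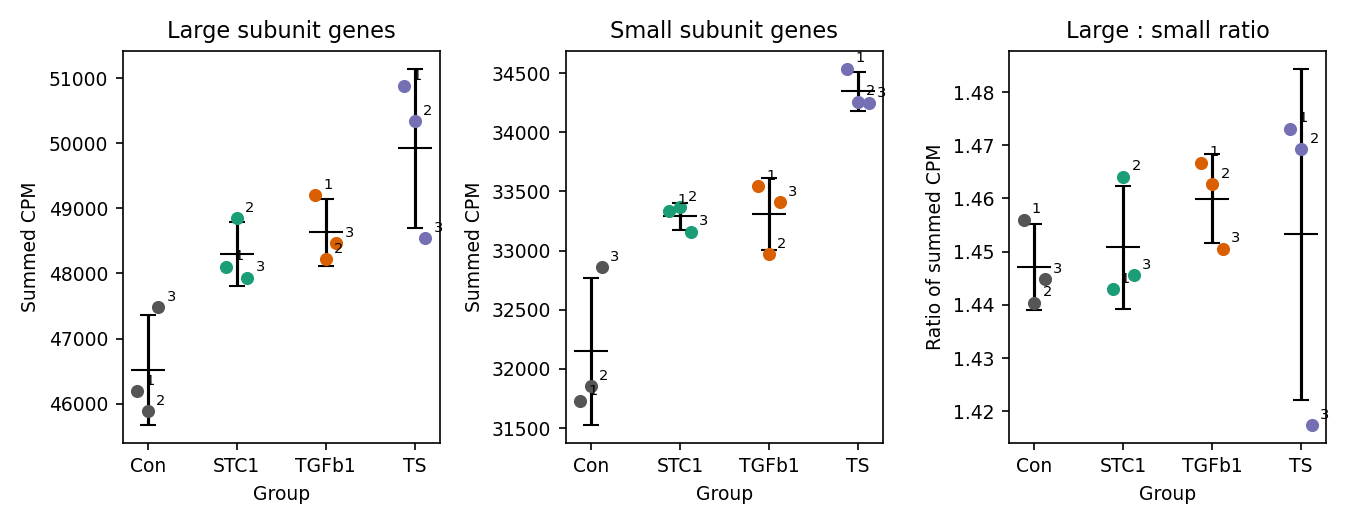
Summed CPM of the 50 large subunit genes (left) and 31 small subunit genes (middle), and the ratio of the sums (right), by group; points are libraries labelled with their replicate number, the horizontal line is the mean and the bar the SD (n = 3), and the axes do not start at 0. The means of both sums are lowest in Con and highest in TS. In the large subunit sum TS replicate 3 lies below TGFb1 replicate 1 and STC1 replicate 2, and in the small subunit sum every TS library lies above all others. The ratio overlaps between all groups.

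Single libraries within a group also differed. The median member lay 0.067 below its own 12-library mean (log2 CPM) in Con replicate 1 and 0.062 below it in replicate 2, but 0.020 below it in replicate 3. In TS it lay 0.074, 0.061 and 0.031 above the mean. Members above their own mean numbered 1, 2 and 18 in the Con libraries and 79, 73 and 51 in the TS libraries, and between 30 and 58 in the others. Con replicate 3 and TS replicate 3 were thus the libraries of their groups nearest to the mean.

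**Figure D2:**
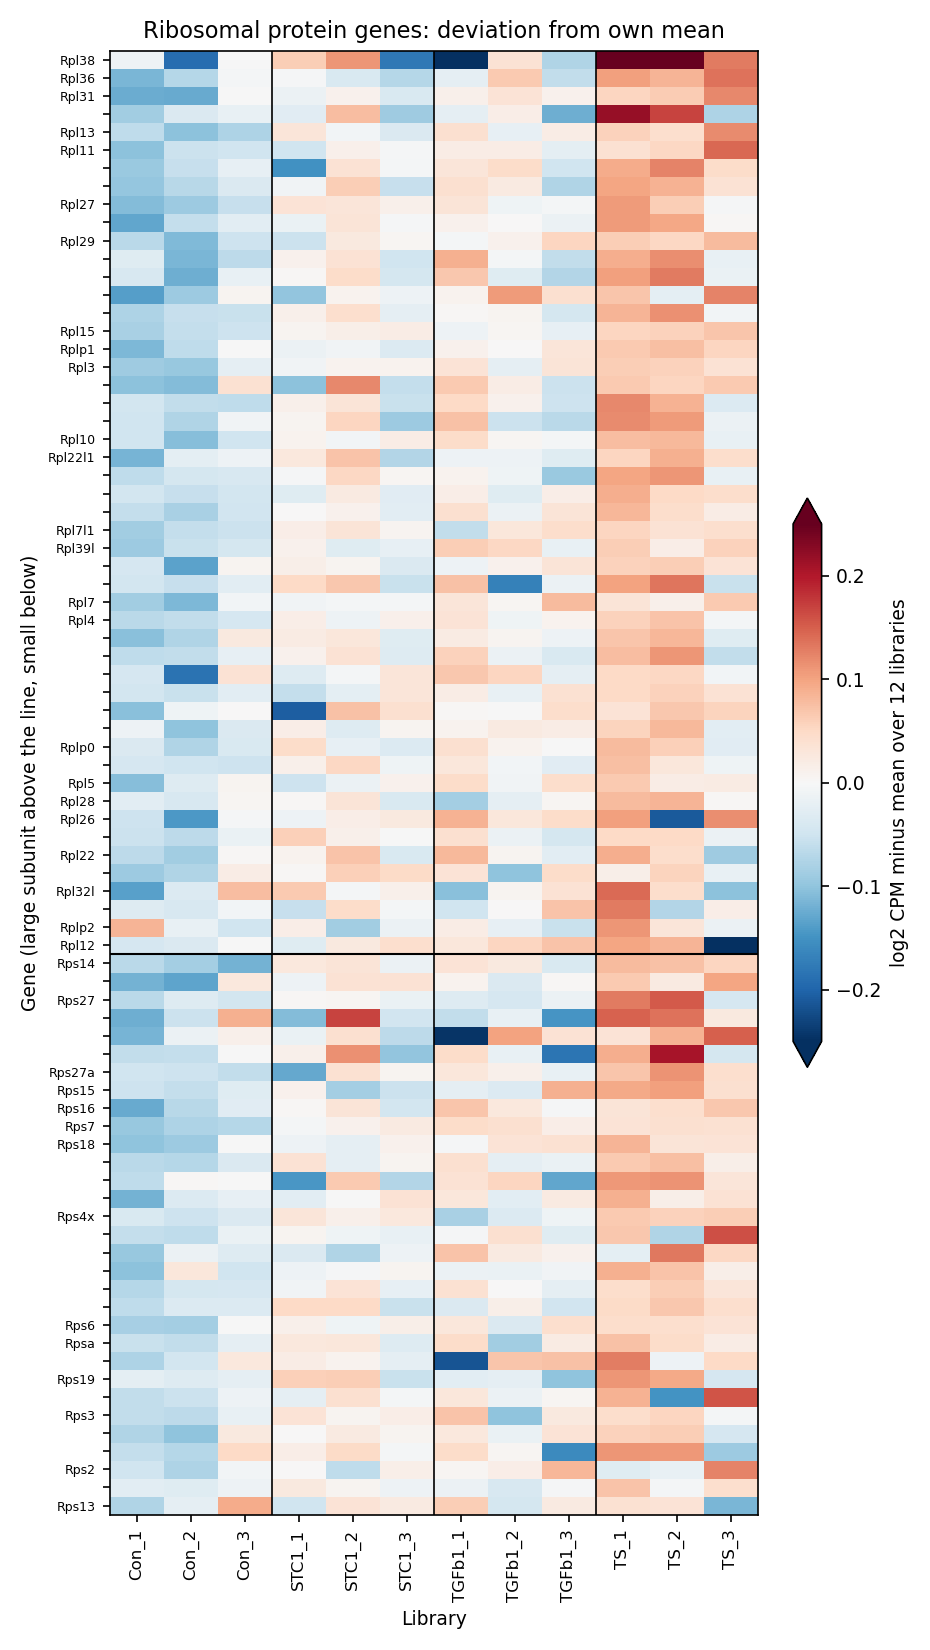
Log2 CPM of each of the 81 members minus its mean over the 12 libraries, with genes in rows (large subunit above the line, small below, some of them named) and libraries in columns; the colours are clipped at 0.25 in either direction. The Con columns are mostly below and the TS columns mostly above the mean, with single exceptions such as Rpl12 in TS replicate 3 and Rpl26 in TS replicate 2.

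The length of a transcript moved with these library differences. In the 6042 other abundant genes with a known length, Spearman's correlation across genes between transcript length and the deviation of a library from the gene's mean was 0.270, 0.321 and 0.149 in Con and -0.375, -0.134 and -0.175 in TS. In the STC1 and TGFb1 libraries it lay between -0.138 and 0.0737. Short transcripts as a class were thus lower in Con and higher in TS libraries, and RP transcripts are short, with a median of 680.5 bases against 2840 for tested genes. Genes are not independent points, and these correlations are a description. The median fold change of the members with this trend removed is given beside each comparison.

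**Figure D3:**
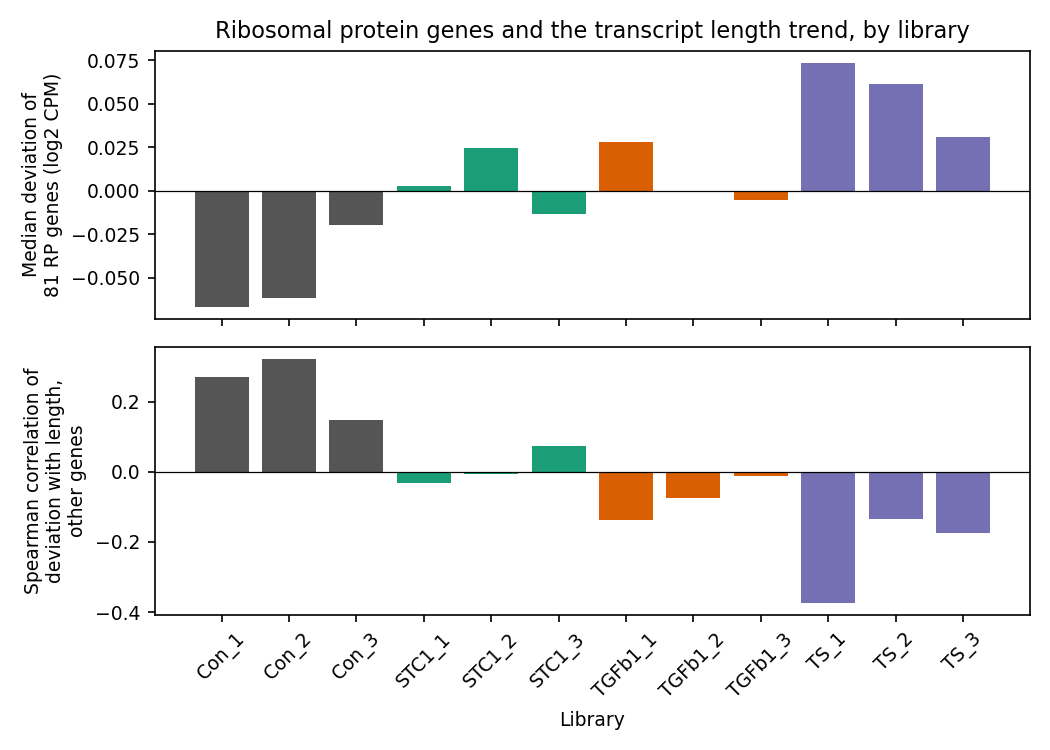
Median deviation of the 81 RP genes from their own means in each library (top, log2 CPM) and Spearman's correlation of deviation with transcript length over 6042 other genes in the same library (bottom). Con libraries are lowest in the top panel and highest in the bottom panel, and TS replicate 1 is the reverse.

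The comparison of both proteins with PBS held the most changes. Here 46 of the 81 members rose and none fell by edgeR's quasi-likelihood test (Benjamini-Hochberg adjusted p under 0.05 over all tested genes), where 6.06% of all tested genes were called and 3.18% called higher. The median SE was 0.0287 for the members and 0.0542 for all tested genes. Small changes could thus be called more easily in members, and the shares of all tested genes, here and below, are not matched for this. The fold change was positive for 80 members (49.9% of all tested genes), and its median was 0.11 on the log2 scale, 1.08-fold, against -0.00021 for all tested genes. In 51 members every TS library lay above every Con library (10.7% of all tested genes), and in none every one below (11.2%). The 46 comprised 29 of the 50 large and 17 of the 31 small subunit genes, with log2 fold changes between 0.087 and 0.17.

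Among the small subunit genes, Rps14, which lies on the platform of that subunit and is needed for its assembly, had the smallest adjusted p. Its level was 756, 746 and 729.8 CPM in Con, 806, 809.7 and 783 in STC1, 811, 805 and 771 in TGFb1, and 836, 833 and 821 in TS. The Con libraries lay below all 9 others and the TS libraries above them. Between TS and Con the log2 fold change was 0.16 (SE 0.0260, adjusted p = 4.46e-05 by edgeR).

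Rps7, which takes part in ribosomal RNA processing and can bind Mdm2, was the least variable of the small subunit genes. It stood at 1309, 1324 and 1329 CPM in Con, 1392, 1408 and 1419.9 in STC1, 1443, 1436 and 1413 in TGFb1, and 1430.1, 1437 and 1435 in TS. The Con libraries lay apart from the rest, and TS and TGFb1 overlapped. It rose in TS (0.12, SE 0.0244, adjusted p = 0.00102 by edgeR). Rps27a, which encodes a ribosomal protein fused to ubiquitin, rose from 897 ± 4.21 to 981 ± 23.9 CPM (0.13, adjusted p = 0.00324). Rps6 rose from 2629.6 ± 88.9 to 2808 ± 10.1 CPM (0.095, adjusted p = 0.0167). Rpsa, also known as the laminin receptor precursor, rose from 2073 ± 30.0 to 2210.1 ± 42.6 CPM (0.092, adjusted p = 0.0286). Rps2, the highest member per length, did not pass, with 3739 ± 90.3 CPM in Con and 3927 ± 236 in TS, nor did Rps3 at the mRNA entry channel (1583 ± 29.1 and 1672 ± 35.1) or Rps19, the gene most often mutated in human Diamond-Blackfan anaemia (954 ± 3.38 and 1010 ± 57.7).

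Among the large subunit genes, Rpl13 rose from 1350.1, 1315 and 1338 CPM in Con to 1469, 1454 and 1532 in TS (0.15, SE 0.0260, adjusted p = 6.25e-05 by edgeR). Rpl31, near the exit of the peptide tunnel, rose from 891, 889 and 970.2 CPM to 1008, 1014 and 1054 (0.16, SE 0.0276, adjusted p = 7.39e-05). Rpl36 rose from 279.7, 288 and 302 CPM to 325, 321 and 332 (0.17, SE 0.0299, adjusted p = 0.000113). In each of the 3 genes the TS libraries lay above those of Con, and Con replicate 3 was the highest Con library of Rpl31 and Rpl36. Rpl15, the member with the smallest spread within groups (0.759%), rose from 885, 898 and 902 CPM to 971, 974 and 982 (0.12, SE 0.0246, adjusted p = 0.000609). Its STC1 libraries, at 941, 946 and 948 CPM, and its TGFb1 libraries, at 928, 939 and 923, fell between those ranges without touching either.

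Genes of named sites on the large subunit were split. Rplp0 and Rplp1 of the stalk rose (0.087, adjusted p = 0.0340, and 0.12, adjusted p = 0.00174 by edgeR), while Rplp2, their partner, was at 532 ± 26.1 CPM in Con and 545 ± 24.0 in TS (0.035, adjusted p = 0.621). Rpl11, which with Rpl5 and a small ribosomal RNA forms a particle that can bind Mdm2, rose from 542 ± 11.1 to 600.1 ± 24.3 CPM (0.15, adjusted p = 0.000291). Rpl5 was at 1486 ± 58.7 and 1568 ± 29.5 CPM (0.078, adjusted p = 0.0709). Rpl3 and Rpl10, which lie close to the peptidyl transferase centre, rose by 0.12 (adjusted p = 0.00130 and 0.00352), and Rpl4, which lines the exit tunnel, by 0.098 (adjusted p = 0.0104). The difference between Rplp2 or Rpl5 and their partners was not tested. Rplp2 and Rpl5 had fractional counts in all 12 libraries, while Rplp0, Rplp1 and Rpl11 had none. Rpl3, which rose, had them in all 12 too, and the part of read splitting in these values was not tested. The other members that rose included Rpl32, Rpl35, Rpl24, Rps20, Rpl19, Rps27, Rpl18, Rps10 and Rpl14.

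**Figure D4:**
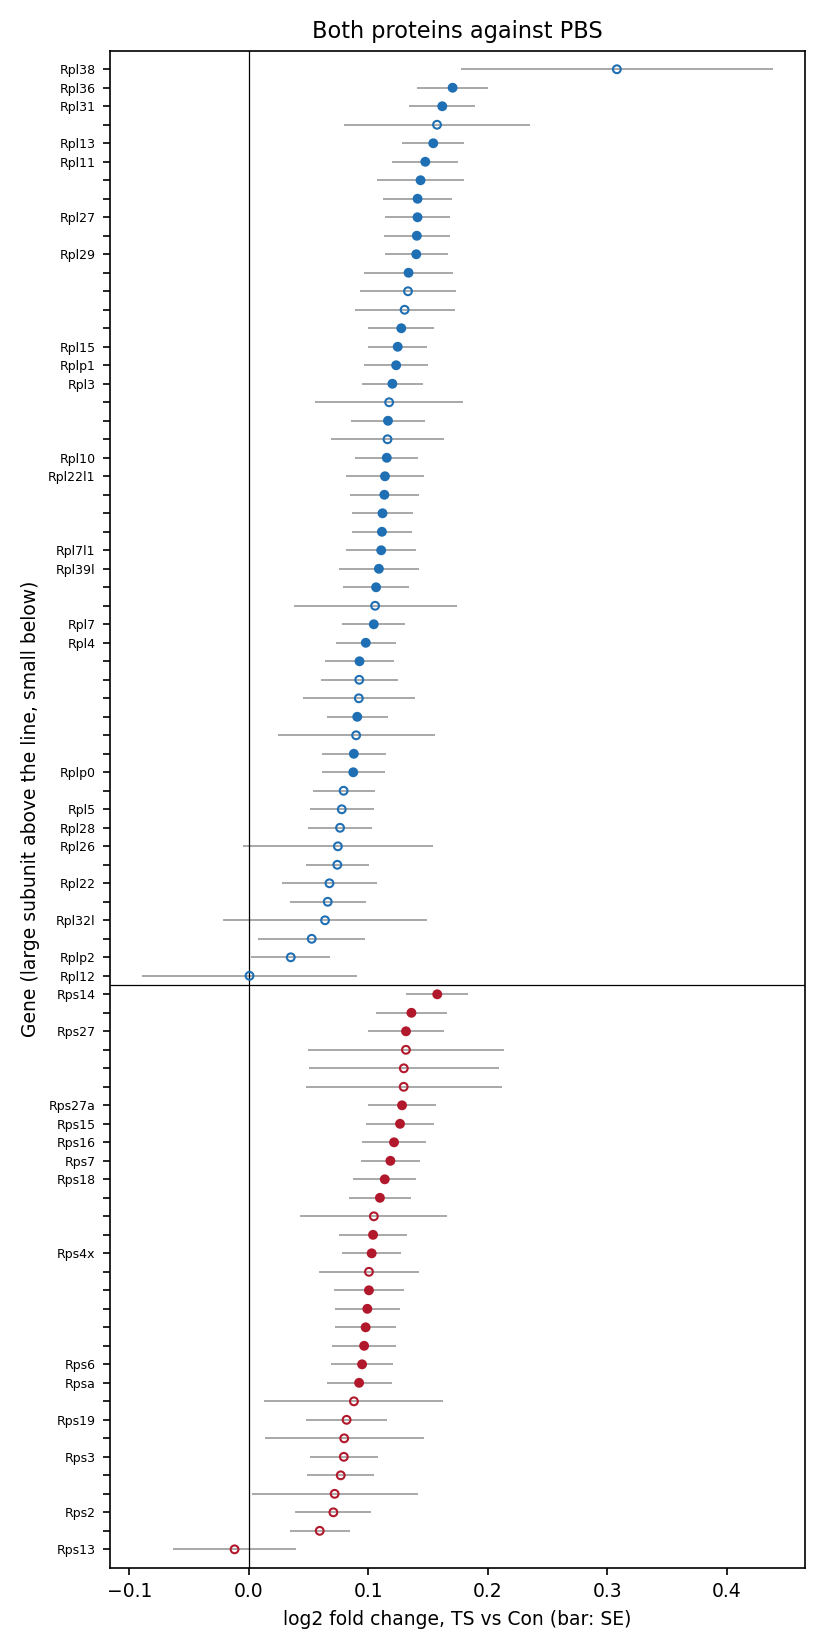
Log2 fold change of each member between TS and Con, with its SE as a bar, large subunit genes above the line and small subunit genes below, some of them named; filled points passed the test (edgeR, adjusted p under 0.05). All but Rps13 lie at or above 0, and the widest bars belong to Rpl38, Rpl12 and Rpl32l.

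With the trend of the fold change in transcript length and GC content removed, the median of the members fell from 0.11 to 0.044, and with mean abundance also removed to 0.033, 71 and 67 of 80 members staying positive. Without Con replicate 1, 25 members were called and 2.34% of all tested genes, and without TS replicate 1 also 25 and 2.97%.

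TGF-β1 alone raised fewer members. Against Con, 11 rose and none fell (edgeR), where 3.99% of all tested genes were called and 1.9% called higher. The fold change was positive for 74 (48.9% of all tested genes), with a median of 0.059 against -0.0022 for all tested genes. In 31 members every TGFb1 library lay above every Con library (10.4% of all tested genes), and in none below (10.9%). The 11 were Rps7 (0.12, SE 0.0244, adjusted p = 0.00236), Rpl7 (0.11, SE 0.0263, adjusted p = 0.00998), Rps16 (0.11, SE 0.0270, adjusted p = 0.0135), Rps14, Rpl31, Rpl29, Rpl13, Rpl27, Rps18, Rpl3 and Rpl6, the last at 0.082 (adjusted p = 0.0473). All 11 were also among the 46 of TS against Con, a comparison that uses the same Con libraries.

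Rpl7, a large subunit gene, stood at 1867, 1836 and 1974 CPM in Con, 1971, 1978 and 1978 in STC1, 2027, 1991 and 2094 in TGFb1, and 2027, 2000.5 and 2075 in TS. Its TGFb1 and TS libraries overlapped and both lay above Con, and Con replicate 3 reached into the range of STC1. Rpl29, a large subunit gene without which mice are viable but small, stood at 642, 624 and 649.6 CPM in Con, 671, 678 and 699 in TGFb1, and 703, 698 and 711 in TS. Rps16 stood at 806, 838 and 862 CPM in Con, 922, 896 and 878 in TGFb1, and 899, 905 and 921 in TS. In both genes Con lay below the other 2 groups, and in Rpl29 TS replicate 2 lay just under the highest TGFb1 library. The lowest values of the comparison were not called: Rpl38 at -0.090 (SE 0.135), Rps29 at -0.048 (SE 0.0830), Rplp2 at -0.027 and Rps19 at -0.023. Of the 11 calls, Rps7 was kept when any 1 Con or TGFb1 library was left out. The others each lost their call in at least 1 such fit, and the count ran from 2 without Con replicate 2 (2.87% of all tested genes called) to 19 without Con replicate 3 (4.6%). It was 3 without Con replicate 1 (1.21%) or TGFb1 replicate 3 (1.73%), and 6 without TGFb1 replicate 1 (431 genes called in all) or TGFb1 replicate 2 (232). With the length and GC trend removed the median was 0.025, and with abundance 0.013.

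Some fibroblast markers fell in the same libraries. Of 7, 3 fell and none rose with TGF-β1, among them Col1a2 (5420 ± 232 to 4899 ± 114 CPM, adjusted p = 0.00184 by edgeR) and Fn1, which encodes fibronectin (6006 ± 242 to 5525 ± 51.1 CPM, adjusted p = 0.00429). In TS against Con 3 fell and S100a4 rose. The summed level of the 7 lay between 17179 and 18388 plain CPM in Con and between 15987 and 17046 in TS. The part of these abundant transcripts in the RP values was not tested, and TMM scaling computed without the RP genes put the rise of the RP sum in TS at 7.28%, against 6.24% without TMM.

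**Figure D5:**
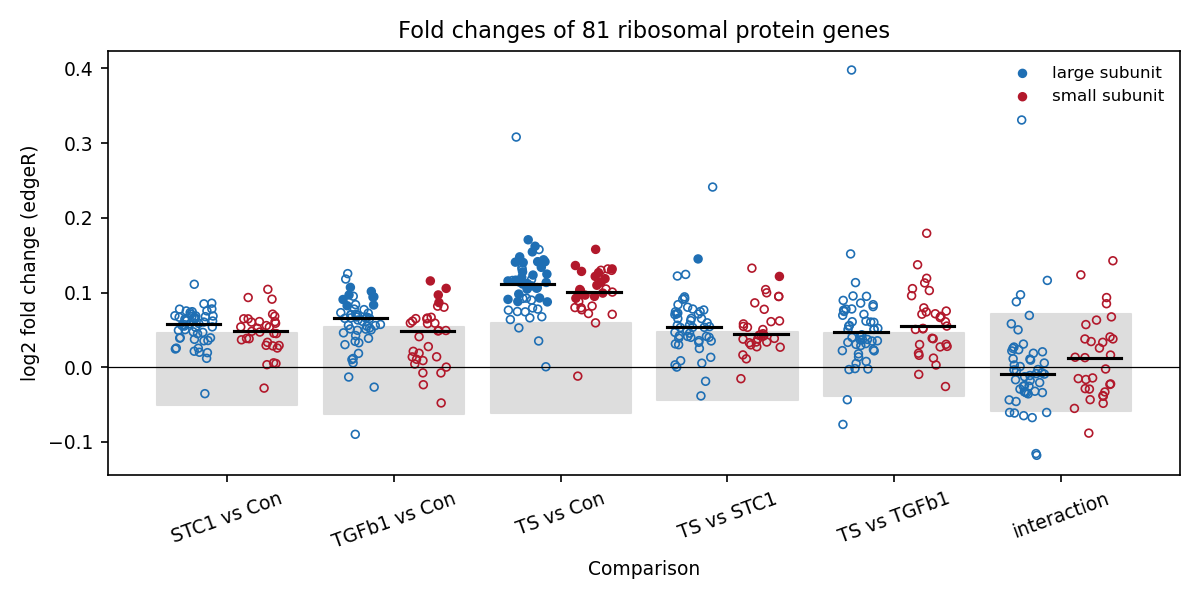
Log2 fold changes (edgeR) of the 50 large and 31 small subunit genes in the 6 comparisons; filled points passed the test, the black bar is the median of each subunit and the grey band the middle 50% of all tested genes. The medians lie above 0 in the 5 comparisons of groups, highest for TS against Con, and close to 0 for the interaction.

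Stanniocalcin-1 alone gave small positive values of which none passed the edgeR test, where 0.051% of all tested genes were called. The fold change was positive for 79 of 81 members (49.1% of all tested genes) with a median of 0.055, against -0.0018 for all tested genes. In 23 members every STC1 library lay above every Con library (7.67% of all tested genes) and in none below (7.52%), and 32 members had an unadjusted p under 0.05, against 10.6% of all tested genes. DESeq2 called 5 members among 46 genes in all, 0.283% of 16251. Only 1758 of these genes had a DESeq2 adjusted p, and the others could not be called. The smallest p belonged to Rpl27, at 500.4, 506 and 518 CPM in Con and 552, 551 and 544 in STC1 (0.11, SE 0.0271, adjusted p = 0.0749 by edgeR), Rps14 (0.10, SE 0.0260, adjusted p = 0.0749) and Rps7 (0.091, SE 0.0244, adjusted p = 0.0884). In each of these the STC1 libraries lay above those of Con. Only Rplp2 (-0.035) and Rps21 (-0.028) had negative values. With the length and GC trend removed the median was 0.020, and with abundance 0.014. Without Con replicate 3, Rpl27 and Rps20 passed, with 0.372% of all tested genes.

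Adding stanniocalcin-1 to TGF-β1 likewise gave no call by edgeR, where 0% of all tested genes were called. The median was 0.051 against 0.00070 for all tested genes, 74 members were positive (50.5% of all tested genes) and 24 had an unadjusted p under 0.05 (6.5% of all tested genes). In 18 members every TS library lay above every TGFb1 library (5.49% of all tested genes), and in none below (5.45%). The smallest p was that of Rps4x, the X-linked form of a small subunit protein, at 1965, 2030.4 and 2064 CPM in TGFb1 and 2174, 2164 and 2168 in TS (0.10, SE 0.0246, adjusted p = 0.279 by edgeR). This was the 1 member, and the 1 gene of all, that DESeq2 called. Its Con libraries, at 2023, 2006 and 2028 CPM, lay within the TGFb1 range, and its STC1 libraries, at 2123, 2096 and 2118, lay between. Rpl36 (0.11, adjusted p = 0.391) and Rps27 (0.11, adjusted p = 0.493) followed. The lowest values were those of Rpl12 (-0.077, SE 0.0902), Rpl26 (-0.043, SE 0.0796) and Rps13 (-0.026, SE 0.0513), and Rpl38 had the highest (0.40, SE 0.132, adjusted p = 0.688). With the length and GC trend removed the median was 0.022, and without TS replicate 3 the edgeR test called 4 members among 6 genes in all (0.0508%).

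TGF-β1 in the presence of stanniocalcin-1, TS against STC1, raised Rpl36 and Rps15 (edgeR), where 0.298% of all tested genes were called. Rpl36 stood at 302, 295 and 288 CPM in STC1 and 298, 317 and 290.0 in TGFb1, both overlapping Con, and the TS libraries lay above all of them (0.15, SE 0.0299, adjusted p = 0.00980). Rps15, which lies on the head of the small subunit, was at 836, 831 and 849 CPM in Con, 873, 817 and 835 in STC1, 853, 846 and 921 in TGFb1, and 925, 931 and 891 in TS (0.12 against STC1, SE 0.0282, adjusted p = 0.0313). Its TGFb1 replicate 3 reached into the TS range. The median of the members was 0.053 against 0.0012 for all tested genes, and 0.024 with the length and GC trend removed. Positive values numbered 78 (50.7% of all tested genes), and 24 members had an unadjusted p under 0.05 (9.17%). In 27 members every TS library lay above every STC1 library (7.35%), and in none below (7.15%). Rps27a came next (0.10, SE 0.0288, adjusted p = 0.154), and the only negative values were those of Rpl23a (-0.019), Rpl12 (-0.038) and Rps13 (-0.015). Neither call was kept in every fit that left out 1 library of the compared groups. Both were lost without STC1 replicate 2, STC1 replicate 3 or TS replicate 1, and Rps15 also without TS replicate 2. In these fits no member was called except Rpl36a without STC1 replicate 2 and Rpl36 without TS replicate 2. Without TS replicate 3, 4 members were called, with 0.305% of all tested genes.

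The interaction asked whether the effect of stanniocalcin-1 differed with TGF-β1 present. No member was called by edgeR, where 0% of all tested genes were called, and DESeq2 called none. The median was -0.0072 against 0.0020 for all tested genes, 36 of 81 members were positive (50.8% of all tested genes), and 3 had an unadjusted p under 0.05, against 8.29% of all tested genes. These were Rps7 (-0.088, SE 0.0345, adjusted p = 0.469), Rpl36 (0.088, SE 0.0424, adjusted p = 0.584) and Rplp2 (0.097, SE 0.0470, adjusted p = 0.596). The median SE of the members was 0.0407, so for a single member a departure from additivity as large as the median effect of either protein was not detectable. Rpl7 (-0.065), Rpl27 (-0.061) and Rpl28 (0.069) had the next smallest p in their direction. With the length and GC trend removed the median was -0.0049, and with abundance 0.00019.

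Large and small subunit genes had like values, and the difference between them was not tested. The median log2 fold change was 0.11 for the large and 0.10 for the small subunit genes in TS against Con, 0.065 and 0.049 in TGFb1 against Con, 0.059 and 0.048 in STC1 against Con, 0.047 and 0.055 in TS against TGFb1, and 0.054 and 0.044 in TS against STC1. The ratio of the large to the small subunit sum was 1.447 ± 0.00804 in Con, 1.451 ± 0.0116 in STC1, 1.460 ± 0.00840 in TGFb1 and 1.453 ± 0.0311 in TS (SD, n = 3). The groups overlapped, and the lowest and the highest ratio of the series, 1.417 and 1.473, were both of TS libraries. In the large subunit sum TS replicate 3 (48538.5 CPM) lay below TGFb1 replicate 1 (49203.3) and STC1 replicate 2 (48853.5). In the small subunit sum every TS library lay above all others, the lowest being TS replicate 3 (34244.7 CPM, against 33546.0 in TGFb1 replicate 1). With the paralogs left out the means were between 1.437 and 1.449.

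Values also differed with the length of the members' transcripts. In classes set after the values were seen, the 18 members under 500 bases had a median spread within groups (pooled coefficient of variation) of 4.58%, against 2.73% for the 44 from 500 to under 1000 bases and 2.67% for the 18 of at least 1000 bases. In TS against TGFb1 their medians were 0.083, 0.051 and 0.033, and in TGFb1 against Con 0.020, 0.062 and 0.066. The interaction was positive for 14 of the 18 shortest and for 1 of the 18 longest members. By library, the median of the shortest class was 0.096 and 0.097 above its mean in TS replicates 1 and 2 but 0.028 in replicate 3, and 0.044 and 0.048 below it in STC1 replicate 3 and TGFb1 replicate 3. The difference between the classes was not tested.

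Rpl38, which in mouse embryos is needed for translation of Hox mRNAs, was the most variable member, with a spread within groups of 10.7%. It stood at 172, 152 and 173 CPM in Con, 180.5, 187 and 153 in STC1, 125, 178 and 164 in TGFb1, and 215, 209.7 and 189 in TS. The TS libraries lay above all the others, and TGFb1 replicate 1 was the lowest. Its log2 fold change of 0.31 between TS and Con was the largest of any member (SE 0.131) and did not pass (adjusted p = 0.254 by edgeR). Rpl12 was low in 1 library, at 2188, 2166 and 1665 CPM in TS against 1984 to 2146 in the other groups, and Rpl26 likewise at 929.6, 748 and 938 CPM in TS. Rps13, of the small subunit, was the only member below 0 in TS against Con, at 579 ± 35.0 CPM in Con and 574 ± 33.9 in TS (-0.012, adjusted p = 0.931).

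The 5 paralogs stood at shares of their parent genes that overlapped between all groups, except Rpl39l, whose shares in TGFb1 (31.3% to 32.9%) lay above those in Con (30.1% to 30.5%). Differences in share were not tested. Rpl22l1, which Rpl22 protein represses in mouse cells, was at 53.1 ± 2.15% of the level of Rpl22 in Con, 52.9 ± 1.01% in STC1, 51.7 ± 1.70% in TGFb1 and 54.9 ± 3.22% in TS (SD, n = 3). Rps27l stood between 34.0% and 34.7% of Rps27 in the 4 group means, Rpl39l, which is best known from the testis, between 29.5% and 32.2% of Rpl39, Rpl7l1 between 9.95% and 10.4% of Rpl7, and Rpl32l between 1.19% and 1.26% of Rpl32. These shares are of counts and not per length. In TS against Con Rpl7l1 (193 ± 2.46 to 208 ± 1.35 CPM, adjusted p = 0.0134 by edgeR), Rpl22l1 (161 ± 6.27 to 174 ± 2.79, adjusted p = 0.0221) and Rpl39l (104 ± 1.73 to 112 ± 1.90, adjusted p = 0.0393) rose. Rpl22 itself was at 304 ± 10.1 and 318 ± 20.1 CPM (adjusted p = 0.386).

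Of the RP genes with other symbols, Fau, which encodes a ubiquitin-like protein fused to a small subunit protein, rose in TS from 573 ± 8.35 to 627 ± 26.6 CPM (0.13, adjusted p = 0.00133 by edgeR), and Rack1, a scaffold on the small subunit, from 1885 ± 20.5 to 2006 ± 22.7 (0.090, adjusted p = 0.0155). Rps3a1 and Rpl36al did not pass. The 78 mitochondrial RP genes had a median of 0.052 in TS against Con, where 4 rose and 3.18% of all tested genes were called higher. In TGFb1 against Con it was 0.050, where 1 rose and 1.9% of all tested genes were called higher. In TS against TGFb1 it was 0.0048, where the cytosolic members had 0.051. The difference between the 2 sets was not tested.

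Some genes that build ribosomes also rose with TGF-β1, in a comparison where 1.9% of all tested genes were called higher. Of 12 genes of the nucleolar core and of the small nucleolar ribonucleoproteins, which modify ribosomal RNA, 7 rose in TGFb1 against Con (median 0.12) and 5 in TS against Con (median 0.11), and none fell. Nucleolin (Ncl) was at 1736 ± 45.1 CPM in Con, 1796 ± 62.8 in STC1, 1945 ± 34.8 in TGFb1 and 1893 ± 97.6 in TS, higher in TGFb1 than in Con with an adjusted p of 0.000411 (edgeR). Nop56 (0.16, adjusted p = 0.000160) and Npm1, which encodes nucleophosmin (0.13, adjusted p = 0.000726), rose likewise. Fbl, the methyltransferase of the same particles, was at 175 ± 2.32 CPM in Con and 176 ± 3.37 in TGFb1.

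Of 20 factors that assemble the large subunit, 5 rose with TGF-β1 and 5 in TS against Con. Nip7 was the strongest of them, at 66.5 ± 3.73 CPM in Con and 75.4 ± 3.06 in TGFb1 (0.18, adjusted p = 0.00561 by edgeR). Of 17 that assemble the small subunit, 4 and 5 rose, among them Wdr43 (0.12, adjusted p = 0.00998) and Emg1 (0.14, adjusted p = 0.0128) with TGF-β1. The medians of the 3 lists in TS against TGFb1 were -0.015, 0.019 and -0.00094, and edgeR called none of their genes there (1, 3 and 1 had an unadjusted p under 0.05), nor did DESeq2.

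Of 12 genes of ribosomal RNA transcription none was called in TGFb1 against Con (edgeR, with 3 at an unadjusted p under 0.05, and none by DESeq2), with a median of 0.054, and Taf1b and Polr1e came closest (adjusted p = 0.0814 and 0.0864). Of 12 regulators of TOP mRNAs none was called (edgeR, with 2 at an unadjusted p under 0.05, and none by DESeq2), with a median of 0.0068, and Larp1 was at 222 ± 7.30 CPM in Con and 225 ± 8.27 in TGFb1. DESeq2 gave an adjusted p to only 4279 of 16251 genes in this comparison. Genes without one could not be called, so its lack of calls in these lists is a limited check. Among 9 transcription factors of RP genes Tbpl1 rose with TGF-β1 (0.15, adjusted p = 0.0392) and Yy1 fell in TS against Con (-0.13, adjusted p = 0.0286), while Myc was at 107 ± 3.40 CPM in Con, 107 ± 1.23 in STC1, 108 ± 3.88 in TGFb1 and 110.0 ± 2.41 in TS. Of 18 other TOP mRNAs 2 rose with TGF-β1, Hnrnpa1 (0.12, adjusted p = 0.00424) and Eef1d (0.11, adjusted p = 0.0147), and 5 in TS against Con, Eef1a1, the elongation factor, among them (0.085, adjusted p = 0.0286). In STC1 against Con edgeR called none of the 183 genes of all these lists, 33 had an unadjusted p under 0.05, and DESeq2 called 2, Rack1 and Eif3f. Only 1758 genes of the table had a DESeq2 adjusted p there. By edgeR the smallest adjusted p was that of Rrp9, a small nucleolar ribonucleoprotein gene (0.26, adjusted p = 0.0749).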

How the data were processed

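The deposited values are expected counts, as the authors' table holds fractions and its columns differ in total (16867563 to 18521810); they were used unscaled. Per the labels' protocols, TRIzol extraction was followed by poly-A selection and an MGIEasy library kit. The submitters' processing notes give the build as GRCm39; aligner, counting program and use of strand are not given in the sources used here. Symbols came from RefSeq (GRCm38.p6) by gene number for 16177 of the 16300 rows, and lengths and GC content from the shortest principal transcript of GENCODE M21, which 80 of the 81 members had.

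Rounded counts passed through filterByExpr and TMM. A model with 1 mean per group over all 12 libraries was tested with edgeR 4.0.16 in R 4.3.3 (robust quasi-likelihood, two-sided), with Benjamini-Hochberg adjustment over the 11763 genes and a threshold of 0.05. The verbs rose and fell refer only to genes past it. The code was tested on simulated data. Named genes were the members called in any comparison, the 3 with the smallest p in each direction, the paralogs with their parents, the 5 highest and 5 lowest per kilobase, up to 3 genes of each list, and Myc; other genes were named for their role, with their values known. Results of some genes that this rule names are not reported here. Members, lists and rules were chosen with earlier results of these data known. Alternatives were DESeq2 1.42.0, other scaling and filters, fewer groups per fit, a replicate block, removal of length, GC and abundance trends by splines, and each library left out. Replicate pairs all differed by more than sampling noise (chi-square per degree of freedom 1.45 to 2.41). The series text describes biological replicates without saying whether they were separate cultures, so p-values measure the spread between these libraries.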

Additional observations from a re-analysis of the deposited data

How the results depend on the processing

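No call of a member reversed its direction in the 12 fits that left out 1 library or in the 7 other refits; after trend removal only medians were examined. With the transcript length and GC trend removed, the median log2 fold change of the members was 0.025 for TGFb1 against Con, 0.020 for STC1 against Con, 0.022 for TS against TGFb1, 0.044 for TS against Con and 0.024 for TS against STC1. With the abundance trend removed too, an alternative chosen after seeing the data, these were 0.013, 0.014, 0.020, 0.033 and 0.019. The interaction had -0.0049 and 0.00019. The trend was fitted to genes other than the members. For STC1 against Con the reported fit called 0.051% of all genes. DESeq2 called 5 members among 46 genes (0.283% of 16251, of which only 1758 had an adjusted p). The count of called members was 2 without a low count filter (0.351% of all genes). It was 1 with only the compared groups in the fit (0.189%) and 3 with the replicate block (0.442%). For TS against TGFb1 it was 1 with DESeq2 (0.00615%) and 1 with only the compared groups (0.0172%), and for TS against STC1 4 without a low count filter (0.394%). For TGFb1 against Con it was 7 without TMM (4.53%) and 6 among members with whole counts, the latter a smaller set chosen after seeing the data. The cause of the other changes was not tested.

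Leaving out each library in turn gave 2 to 19 called members for TGFb1 against Con, 0 to 2 for STC1 against Con, 0 to 4 for TS against TGFb1, 25 to 55 for TS against Con, 0 to 4 for TS against STC1 and 0 to 0 for the interaction. The medians ranged from 0.048 to 0.073, 0.042 to 0.072, 0.039 to 0.057, 0.097 to 0.12, 0.042 to 0.066 and -0.021 to 0.0067 in the same order. The large minus small subunit difference ranged from 0.0060 to 0.017, 0.0035 to 0.016, -0.011 to 0.0049, 0.00083 to 0.016, -0.0013 to 0.018 and -0.026 to -0.0060. Of the 46 members called in TS against Con, 20 were called in every fit that left out 1 Con or TS library, among them Rpl11, Rpl13, Rpl15, Rpl27, Rpl31, Rpl36, Rplp1, Rps4x, Rps7, Rps14, Rps15 and Rps27a. 

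Same-numbered libraries of different groups correlated between -0.0232 and 0.245 in their deviations from the group means, most of them above 0. Differently numbered libraries correlated between -0.212 and 0.145. These overlapping ranges do not settle whether the numbers pair the samples, and the reported fit took them as unpaired. With the replicate number as a block, 14 members were called for TGFb1 against Con (5.58% of all genes), 3 for STC1 against Con (0.442%), 0 for TS against TGFb1 (0.0085%), 53 for TS against Con (7.28%), 2 for TS against STC1 (0.425%) and 0 for the interaction (0.0425%). With 3 libraries per group and changes of under 10% in most members, counts of calls near the threshold moved with the fit, while the medians of the 5 comparisons of groups stayed positive and that of the interaction changed sign.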
